A study of Mus musculus with 4 samples.

Results

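The genes described here are 10 genes of MHC class II antigen presentation, chosen by symbol from the 24421 genes counted in each library: H2-Aa, H2-Ab1, H2-Eb1, Cd74, H2-DMa, H2-DMb1, H2-DMb2, H2-Oa, H2-Ob and Ciita. All 10 were found in the tables. They were measured by bulk RNA sequencing of J558 allografts, which are tumours of a BALB/c plasmacytoma (an antibody-secreting B-lineage tumour line) grown under the skin of the flank in immune-competent female BALB/c mice aged 4 weeks. Vehicle mice received 0.5% methylcellulose by mouth and TAK-931 mice received TAK-931, an inhibitor of the replication-initiating kinase CDC7, at 60 mg/kg once daily, and tumours of both groups were taken on day 6. There were 2 libraries per group (Vehicle-1, Vehicle-2, TAK-931-1 and TAK-931-2), with 16487902 to 19589339 counts each. All 4 tumours come from a single cell line, and the tumours behind Vehicle-1 and TAK-931-1 were those that the study picked as representative for its other assays. The comparison asks how the tumour as a whole, J558 cells and host cells together, differed between TAK-931 and Vehicle mice.

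MHC class II molecules are pairs of an α and a β chain that hold peptides from endosomes at the cell surface, where CD4 T cells read them. Dendritic cells, macrophages and B cells make them constantly or on activation, many other cells make them when exposed to interferon-γ, and plasma cells largely switch them off. The invariant chain Cd74 blocks the groove and guides the pair to endosomes, H2-DM then exchanges the last invariant chain fragment for a peptide, H2-DO restrains H2-DM, and Ciita is the coactivator on which transcription of nearly all of these genes depends.

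In both TAK-931 libraries every one of the 10 genes had a higher level than in both Vehicle libraries, but the 2 TAK-931 libraries differed widely from each other. Levels are given in CPM, read counts put on a common scale by library total and TMM factor. Against the mean of the Vehicle libraries, the 9 genes tested were between 7.20-fold and 25.9-fold higher in TAK-931-1 and between 2.52-fold and 12.1-fold higher in TAK-931-2. Without a filter on low counts, all 10 genes lay higher in both TAK-931 libraries, as did 26.6% of 17621 genes. The filter left 13669 genes and 9 of the 10, since H2-Oa was too low. H2-Ob passed it only through its level in TAK-931, so it had to differ between the groups. The other 8 also had at least 10 counts in every library, and all 8 lay higher in both TAK-931 libraries, as did 30% of all genes tested.

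None of these differences passed the test across all genes. In edgeR's quasi-likelihood test, 0 of the 9 genes had an adjusted p under 0.05, as did 0% of all genes tested, and the lowest adjusted p of any gene, shared by the 9, was 0.275. At an unadjusted edgeR p under 0.05, 9 of 9 were higher, against 11.6% of all genes tested, and limma-voom had 6 of 9 at an unadjusted p under 0.05 (not the 3 H2-DM chains), against 5.72% of all genes higher. The median log2 fold change was 3.26 over the 9 genes and 0.02 over all genes tested. DESeq2 called all 9 at an adjusted p under 0.05, where it called 9.09% of all genes higher. These counts and the median include H2-Ob, which had to differ. The edgeR fit of genes with at least 10 counts in every library left H2-Ob out. There, 8 of 8 had an unadjusted p under 0.05, as did 2265 of 12242 genes in either direction. Their median log2 fold change was 3.39, and 0 of the 8 had an adjusted p under 0.05. With the replicate number as a block, which the labels do not tie to a shared batch, edgeR called 6 of the 9 and 1.03% of all genes higher.

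TAK-931-1 stood apart from the other libraries across the tumour, so each value is given per library. Without it, the median log2 fold change of the 9 genes was 1.70, and all 9 were still higher in TAK-931-2 than in both Vehicle libraries. For H2-Ob this had to be so, since only its TAK-931 level passed the filter. In bulk tumour RNA, a change in the number of cells that carry these transcripts and a change in the transcripts per cell cannot be told apart.

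**Figure D1:**
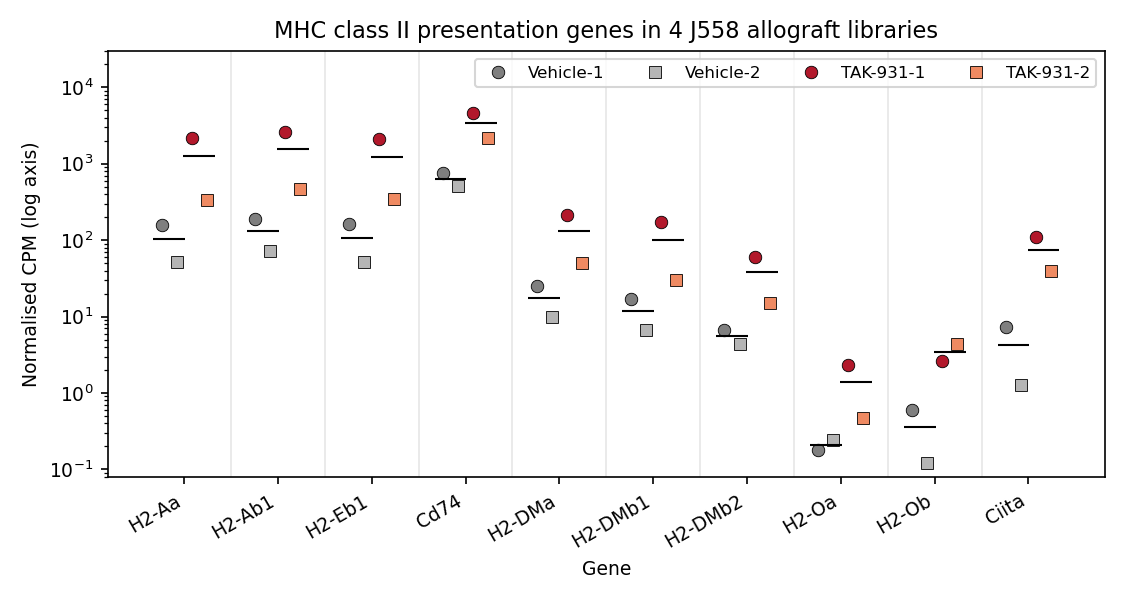
Normalised CPM (log axis) of the 10 class II presentation genes in each of the 4 libraries, with a bar at the mean of each group (n = 2). Both TAK-931 points lie above both Vehicle points for all 10 genes, TAK-931-1 is the highest library for all but H2-Ob, and H2-Oa and H2-Ob lie at the bottom of the axis.

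Ciita (chromosome 16, 10480072 to 10527640, mm10), the coactivator that the others depend on, had the largest fitted fold change of the 9 genes tested, a rank that rests on TAK-931-1. Its level was 7.23 CPM in Vehicle-1, 1.26 CPM in Vehicle-2, against 109.9 and 39.0 CPM in TAK-931-1 and TAK-931-2. The groups did not overlap, and Ciita was the gene of the 9 with the highest fold in TAK-931-1, at 25.9 times the Vehicle mean, while the fold in TAK-931-2 was 9.18. The Vehicle libraries were themselves 5.75-fold apart, the second of them resting on 21 counts. The log2 fold change was 4.13 ± 1.06 (SE; edgeR unadjusted p = 0.0153, adjusted p = 0.275). Without TAK-931-1 it was 3.19, below the 3.57 of H2-Ob.

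Ciita does not bind DNA itself. It joins RFX, CREB and NF-Y factors that sit on paired letters upstream of class II genes, the X box and the Y box. RefSeq promoter windows on GRCm38.p6, from 250 bases before to 50 bases after a start site, were at hand for 7 of the 10 genes (not for H2-Ab1, Cd74 or Ciita), and H2-DMa had an extra start. The letters ATTGG of the Y box, read on both strands, stood in windows of all 7 genes and in 37.4% of 32851 promoters. The X core GNNACNNNT by itself stood in 5 of the 7 genes and in 76.7% of all promoters. The letters TTCNNNGAA, the gamma-activated site, stood in 1 of the 7 genes and in 8.3% of all promoters. A pair of the X core GNNACNNNT and a Y box on 1 strand, with 15 to 45 bases from start to start, stood in 3 of the 7 genes (H2-DMb1, H2-Eb1 and H2-Ob) and in 3.88% of all promoters. With the shorter core GNNAC at 28 to 35 bases, a choice made after the letters were seen, 5 of the 7 genes held a pair, against 4.78% of all promoters. The windows of H2-DMa and H2-DMb2 held neither pair. The 5 stretches with the shorter pair are shown so that the letters can be compared. Capitals mark the shorter X core (GNNAC) and the Y box, and each stretch reads 5′ to 3′ on the strand of its gene.
H2-Aa, chr17:34287847-34287929, minus strand: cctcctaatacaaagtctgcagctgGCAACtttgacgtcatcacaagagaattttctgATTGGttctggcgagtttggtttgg
H2-DMb1, chr17:34153072-34153154, plus strand: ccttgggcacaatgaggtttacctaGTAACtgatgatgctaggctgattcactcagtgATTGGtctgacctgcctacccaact
H2-Eb1, chr17:34305751-34305832, plus strand: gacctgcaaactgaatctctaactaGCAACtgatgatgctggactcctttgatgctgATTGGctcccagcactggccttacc
H2-Oa, chr17:34092278-34092360, plus strand: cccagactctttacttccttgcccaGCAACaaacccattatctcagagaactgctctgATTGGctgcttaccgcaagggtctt
H2-Ob, chr17:34238793-34238872, plus strand: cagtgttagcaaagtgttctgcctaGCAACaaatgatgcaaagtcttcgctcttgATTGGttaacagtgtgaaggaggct
The start of the X core lay 33 bases before that of the Y box in H2-Aa, H2-DMb1 and H2-Oa, 32 in H2-Eb1 and 30 in H2-Ob. The X cores began 76 to 94 bases before the start sites. The class I genes H2-K1, H2-D1 and B2m, whose promoters are known for the same boxes, held the planned pair as well. These matches describe letters in the reference genome, and binding was not measured here.

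The classical chains form the peptide-holding pairs, and all 3 behaved alike across the libraries. H2-Aa (chromosome 17, 34282751 to 34287771, minus strand), the α chain of I-A, was at 158 and 51.7 CPM in Vehicle-1 and Vehicle-2, against 2152 and 336 CPM in TAK-931-1 and TAK-931-2. H2-Ab1 (chromosome 17, 34263227 to 34269418), its β chain, was at 190 and 71.3 CPM in Vehicle, against 2616 and 466 CPM in TAK-931-1 and TAK-931-2. H2-Eb1 (chromosome 17, 34305867 to 34316674), the β chain of I-E, was at 162 and 52.2 CPM in Vehicle, against 2083 and 349 CPM in TAK-931-1 and TAK-931-2. The groups did not overlap for any of the 3 chains, although Vehicle-1 was 2.67 to 3.10 times Vehicle-2 and TAK-931-1 was 5.62 to 6.40 times TAK-931-2. The log2 fold changes were 3.57 ± 1.14 for H2-Aa, 3.56 ± 1.06 for H2-Ab1 and 3.50 ± 1.12 for H2-Eb1 (SE). The edgeR unadjusted p-values of the 3 chains were 0.0319, 0.0251 and 0.0313, and their adjusted p was 0.275.

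The partner of H2-Eb1, the I-E α chain, is a pseudogene in the C57BL/6 reference (H2-Ea-ps) but a working gene in BALB/c mice. H2-Ea-ps held 1920 and 683 counts in Vehicle, against 30481 and 4422 counts in TAK-931-1 and TAK-931-2, with a log2 fold change of 3.59 ± 1.11 (SE; edgeR unadjusted p = 0.0284, adjusted p = 0.275). Per length, it was 0.359 and 0.375 of the summed H2-Aa, H2-Ab1 and H2-Eb1 level in Vehicle and 0.376 and 0.360 of it in TAK-931, so this ratio moved little while the levels themselves moved widely. H2-Eb2, a minor β chain gene, had 0 counts in both Vehicle libraries and 8 and 12 counts in TAK-931-1 and TAK-931-2. The 0 counts in Vehicle allow as many as 3, which is 0.178 CPM in Vehicle-1 and 0.180 CPM in Vehicle-2.

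Cd74 (chromosome 18, 60803849 to 60812652), the invariant chain, was the most abundant of the 10 genes in every library and had the smallest fitted fold change of the 9 tested, which rests on TAK-931-1. It was at 759 CPM in Vehicle-1, 510 CPM in Vehicle-2, against 4568 and 2189 CPM in TAK-931-1 and TAK-931-2. Both TAK-931 libraries were above both Vehicle libraries, by 7.20-fold and 3.45-fold over the Vehicle mean. The Vehicle libraries lay nearer to each other (1.49-fold) than for the 3 chains, and so did the TAK-931 libraries (2.09-fold). Without TAK-931-1, its log2 fold change of 1.78 was above those of 5 of the other 8 genes. Cd74 had the lowest unadjusted p of the 9 genes, with a log2 fold change of 2.41 ± 0.49 (SE; edgeR unadjusted p = 0.00631, adjusted p = 0.275). Its exons overlap Mir5107, and the strand setting of the counting was not given in the sources used here.

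The H2-DM chains, the peptide exchange factor, lay below the classical chains in every library and were spread over the libraries in the same order. H2-DMa (chromosome 17, 34122832 to 34139101), the α chain, was at 25.4 and 9.89 CPM in Vehicle, against 214 and 49.8 CPM in TAK-931-1 and TAK-931-2. H2-DMb1 (chromosome 17, 34153191 to 34160229), the main β chain, was at 17.1 and 6.65 CPM in Vehicle, against 173 and 29.9 CPM in TAK-931-1 and TAK-931-2. H2-DMb2 (chromosome 17, 34145416 to 34151095), the neighbouring second β chain gene, was at 6.64 and 4.44 CPM in Vehicle, against 60.7 and 15.1 CPM in TAK-931-1 and TAK-931-2. The groups did not overlap for any of the 3, and TAK-931-2 stood 2.52 to 2.82 times over the Vehicle mean. The log2 fold changes were 2.90 ± 0.91 for H2-DMa, 3.09 ± 1.03 for H2-DMb1 and 2.77 ± 0.79 for H2-DMb2 (SE), with edgeR unadjusted p-values of 0.0297, 0.0363 and 0.0214 and an adjusted p of 0.275. The longest transcripts of H2-DMb1 and H2-DMb2 were 94.3% identical over 1211 aligned bases, and 25.2% of the 50-base stretches of the latter also occurred in the former. The split of counts between the pair is therefore uncertain, and with both summed as 1 gene the adjusted p was again 0.275.

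The H2-DO chains, the brake on H2-DM that is best known from B cells, were barely detected. H2-Oa (chromosome 17, 34092379 to 34095234), the α chain, had 3 and 4 counts in Vehicle, against 44 and 8 counts in TAK-931-1 and TAK-931-2. H2-Ob (chromosome 17, 34238905 to 34245908), the β chain, had 10 and 2 counts in Vehicle, against 50 and 74 counts in TAK-931-1 and TAK-931-2. H2-Ob was the only one of the 10 genes that was higher in TAK-931-2 than in TAK-931-1, at 4.32 against 2.63 CPM. Its log2 fold change was 3.26 ± 0.99 (SE; edgeR unadjusted p = 0.0270, adjusted p = 0.275), but it had to differ because only its TAK-931 level passed the filter. H2-Oa was too low for the filter, and in a fit without the filter its log2 fold change was 2.66 (edgeR unadjusted p = 0.0865, adjusted p = 0.360). The exons of H2-Oa overlap those of BC051537 on the opposite strand, which had 0, 2, 8 and 0 counts in Vehicle-1, Vehicle-2, TAK-931-1 and TAK-931-2. The level of H2-Oa in Vehicle lay at or near the limit that a count of 0 allows, so a change in the balance of the 2 DO chains was not detectable at this depth.

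Per kilobase of exon, the order of the levels was the same at the top in every library: Cd74, then H2-Ab1, H2-Aa and H2-Eb1, then the 3 H2-DM chains in varying order. Cd74 was at 536, 361, 3228 and 1547 CPM per kb in Vehicle-1, Vehicle-2, TAK-931-1 and TAK-931-2. H2-Ab1 followed at 160, 59.7, 2193 and 390 CPM per kb. Ciita and the DO chains stood at the bottom in every library, with Ciita at 1.21, 0.210, 18.3 and 6.50 CPM per kb. H2-Ab1 and H2-Aa kept their places in all 4 libraries although each differed between replicates by more than the pair differed within a library, and the order among the H2-DM chains, and among Ciita and the DO chains, changed between libraries.

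The 8 members on chromosome 17 lie within 224.3 kb, among 14 genes of the tables, and the members differed more between groups than the genes interspersed with them. The interspersed genes are named here after their values were seen. Between H2-DMb1 and H2-Ob lie the proteasome and peptide transporter genes of the class I pathway, with log2 fold changes of 1.03 for Psmb9, 1.70 for Tap1, 0.73 for Psmb8 and 0.83 for Tap2. All 4 were higher in both TAK-931 libraries, and Tap1 alone of them had an edgeR unadjusted p under 0.05, at 0.0376. Brd2, a chromatin reader gene next to H2-DMa, was lower in both TAK-931 libraries, at 272 and 299 CPM against 339 and 352 CPM in Vehicle, with a log2 fold change of -0.27 (edgeR unadjusted p = 0.285, adjusted p = 0.489). The difference between members and interspersed genes was not tested.

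**Figure D2:**
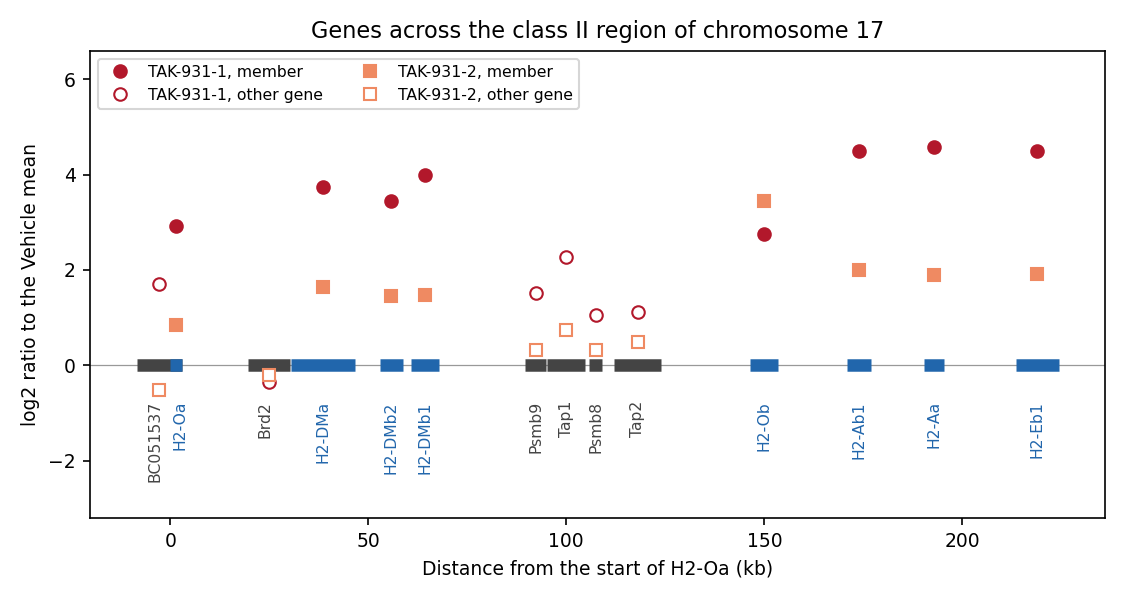
Log2 ratio of each gene's level to the Vehicle mean in TAK-931-1 (circles) and TAK-931-2 (squares), plotted over gene position in kb from the start of H2-Oa. Filled points and blue bars are the 8 members, and open points and dark bars are other genes: Brd2 lies just under 0 and the 4 class I pathway genes lie below all 8 members within each library.

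Ratios between the members within a library do not depend on how libraries are scaled, and the planned ones overlapped between the groups. The ratio of Cd74 to the summed 3 classical chains, per length, was 1.33 and 2.59 in Vehicle and 0.592 and 1.69 in TAK-931 (log2 difference -0.89, exact two-sided permutation p = 0.667). The ratio of DO to DM chains was 0.0105 and 0.0163 in Vehicle and 0.00937 and 0.0284 in TAK-931 (log2 difference 0.32, exact two-sided permutation p = 1). The lowest value of both ratios was in TAK-931-1. The values of the groups interleave for Cd74, and both Vehicle values lie between the TAK-931 values for DO to DM chains. A pair of ratios chosen after the levels were seen did not overlap. The ratio of DM to classical chains was 0.0918 and 0.120 in Vehicle and 0.0626 and 0.0794 in TAK-931 (log2 difference -0.58), and that of Ciita to classical chains was 0.00298 and 0.00151 in Vehicle and 0.00336 and 0.00711 in TAK-931 (log2 difference 1.21). Each had an exact two-sided permutation p of 0.33, which is the smallest that 2 libraries against 2 can give.

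The class II chains were also set against class I and against markers of cells that can carry class II. The ratio of class II chains to class I (H2-K1, H2-D1 and B2m), per length, was 0.206 and 0.0761 in Vehicle and 0.644 and 0.282 in TAK-931, without overlap (log2 difference 1.77, exact two-sided permutation p = 0.33). The ratio to Ptprc, the pan-leukocyte gene CD45, was 62.5 and 38.0 in Vehicle and 48.8 and 40.6 in TAK-931, with both TAK-931 values between the Vehicle values (log2 difference -0.13, exact two-sided permutation p = 1). The ratio to the summed macrophage markers was 1.08 and 0.471 in Vehicle and 1.06 and 0.905 in TAK-931, which also overlapped (log2 difference 0.46, exact two-sided permutation p = 1). The ratio to the summed dendritic cell markers was 31.8 and 11.5 in Vehicle and 44.7 and 33.7 in TAK-931 (log2 difference 1.02), and that to the summed B cell markers was 2.59 and 0.726 in Vehicle and 67.1 and 5.43 in TAK-931 (log2 difference 3.80). The last pair of ratios did not overlap between groups (exact two-sided permutation p = 0.33 each).

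**Figure D3:**
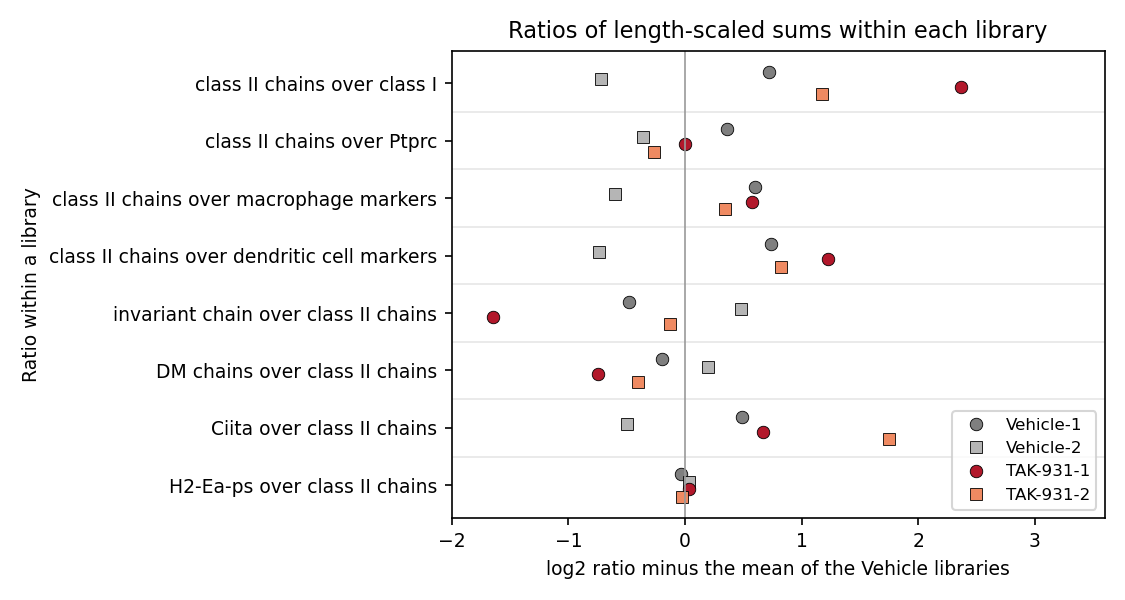
Log2 ratio of length-scaled sums within each library, minus the mean of the 2 Vehicle libraries, for 8 of the ratios in the text. The TAK-931 points fall between or beside the Vehicle points for the ratios to Ptprc, to macrophage markers and of H2-Ea-ps, and both lie to the right of the Vehicle points for the ratio to class I, at 0.644 and 0.282 on the linear scale.

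Genes of the same pathway and cell type markers were taken from lists written by hand, and edgeR gave none of the 98 tested genes of both kinds an adjusted p under 0.05 (DESeq2 called 47 of them, all higher, and limma-voom 0). The counts of list genes below are to be read against the 30% of all genes tested that were higher in both TAK-931 libraries and the 11.6% that were higher at an unadjusted p under 0.05. Where a count of 5 or fewer is spelled out by gene, those genes were picked after their values were seen. Of the factors that hold Ciita at the X and Y boxes, 0 of 7 were higher in both TAK-931 libraries and 4 of 7 (Rfxap, Rfxank, Nfyb and Nfyc) were lower in both, against 32.7% of all genes, with a median log2 fold change of -0.48. At an unadjusted p under 0.05, 1 of the 7 was lower (Nfyb, an NF-Y subunit, log2 fold change -0.84), against 6.55% of all genes. Rfx5, the DNA-binding RFX subunit, was at 46.5 and 49.7 CPM in Vehicle and 44.4 and 78.6 CPM in TAK-931, so the groups overlapped. Rfxank, another RFX subunit, had the lowest log2 fold change of the list at -0.90, and Creb1 was at 0.08.

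The interferon-γ arm, which runs from the cytokine through its receptor and JAK kinases to Ciita, was higher in both TAK-931 libraries for 9 of 9 genes, against 30% of all genes, and 6 of them had an unadjusted p under 0.05, against 11.6% of all genes. Its median log2 fold change was 1.72. Ifng had 32 and 2 counts in Vehicle, against 516 and 112 counts in TAK-931-1 and TAK-931-2, the largest log2 fold change of the list at 4.05. Ifng is in both counts above and passed the filter only with the TAK-931 libraries counted. Irf1, a transcription factor that acts on Ciita, was at 68.1 and 53.4 CPM in Vehicle and 261 and 140 CPM in TAK-931. Jak2, a receptor kinase, had the smallest log2 fold change at 0.24. For Ifng and Irf1, Vehicle-1 was the higher Vehicle library and TAK-931-1 the highest library, an order shared by all members but H2-Oa and H2-Ob.

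Endosomal proteases and turnover factors, which cut antigens and the invariant chain, were higher in both TAK-931 libraries for 10 of 11 genes, with 4 (Ctss, Ctsb, Ctsh and March1) at an unadjusted p under 0.05 and a median log2 fold change of 1.11. Ctsh, a cathepsin, had the largest log2 fold change at 3.04, and March8, a ubiquitin ligase, had the smallest at -0.01. Costimulatory genes of presenting cells were higher in both for 5 of 5, with all but Cd80 at an unadjusted p under 0.05 and a median of 2.32, from 1.76 for Icosl to 2.72 for Cd86. Class I presentation genes had a lower median, at 1.09, with 9 of 11 higher in both, 1 lower in both (Erap1, the peptide trimming enzyme, at -0.13) and 5 (H2-K1, B2m, Tap1, Tapbp and Nlrc5) at an unadjusted p under 0.05. Nlrc5, the class I counterpart of Ciita, led that list at 1.81, and Psmb10 was at -0.12.

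A list of T cell genes, named for the helper side, had the highest median of the lists, although Cd4 had its smallest fold change and the Cd3 chains are carried by CD8 T cells as well. All 5 genes (Cd4, Lag3, Cd3d, Cd3e and Cd3g) were higher in both TAK-931 libraries, all 5 had an unadjusted p under 0.05, and the median log2 fold change was 5.64. Cd3e and Cd3g, at 6 and 2 counts in Vehicle-2, passed the filter only with the TAK-931 libraries counted. The median was 4.87 among genes with at least 10 counts in every library, 4.42 with the replicate block and 4.48 with limma-voom. Cd4, the class II coreceptor, was at 1.78 and 3.48 CPM in Vehicle, against 42.6 and 7.70 CPM in TAK-931-1 and TAK-931-2, with the smallest log2 fold change of the list at 3.26. Lag3, an inhibitory receptor for class II, was at 3.97 and 2.28 CPM in Vehicle, against 152 and 20.1 CPM in TAK-931-1 and TAK-931-2. Cd3g had the largest log2 fold change at 6.36, on 44 and 2 counts in Vehicle and 4042 and 221 counts in TAK-931.

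Markers of the cell types that a tumour can hold moved with the members to different degrees. Ptprc was at 36.6 and 20.8 CPM in Vehicle and 633 and 128 CPM in TAK-931, with a log2 fold change of 3.73. Of the macrophage markers, 10 of 10 were higher in both TAK-931 libraries and 10 of 10 had an unadjusted p under 0.05, with a median of 3.17, from 2.69 for Mrc1 to 4.56 for Mertk. Their summed level was 405 to 487 CPM in Vehicle, against 6726 and 1311 CPM in TAK-931-1 and TAK-931-2, and 0 of the 10 were at 0. Of the dendritic cell markers, 9 of 10 were higher in both, 4 (Itgax, Xcr1, Ccr7 and Batf3) with an unadjusted p under 0.05, with a median of 2.33, from -0.14 for Flt3 to 3.50 for Itgax. Their summed level was 29.9 to 34.0 CPM in Vehicle and 348 and 74.1 CPM in TAK-931. Clec9a and Cd209a, both among the 9, passed the filter only with the TAK-931 libraries counted. The macrophage list came close to the members in the TAK-931 libraries, with median log2 ratios to the Vehicle mean of 3.95 and 1.56 against 4.0 and 1.89 for the members, but not between the Vehicle libraries, where Vehicle-1 exceeded Vehicle-2 by a median of 0.20 against 1.42. The part of these cells in the class II levels was not tested.

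B cell and plasma cell markers showed no common direction. Of 9 B cell markers, Pax5 was at 0 in all 4 libraries. Of the 6 tested, 1 was higher in both TAK-931 libraries (Cd22, log2 fold change 4.27, unadjusted p under 0.05) and 1 was lower in both (Cd79b, -0.69), and the median was 1.03. Their summed level, mostly Cd79b and Ms4a1, was 205 to 248 CPM in Vehicle and 141 and 242 CPM in TAK-931. The labels call J558 a B lymphocyte, and the defining B cell gene Pax5 was at 0, while plasma cell genes were abundant. The summed level of 7 plasma cell and J558 markers was 8918 to 9474 CPM in Vehicle, against 4516 and 12870 CPM in TAK-931-1 and TAK-931-2. Their median log2 fold change was -0.24, with 2 of 7 (Xbp1 and Sdc1) lower in both TAK-931 libraries, a share near the 32.7% of all genes, from -0.74 for Sdc1 (CD138) to 0.39 for Irf4, and Prdm1, the plasma cell factor that represses Ciita, was at 172 and 166 CPM in Vehicle and 89.6 and 222 CPM in TAK-931. The median log2 ratio of these 7 markers to the Vehicle mean was -1.33 in TAK-931-1, where 9 of the 10 class II genes were highest, and 0.37 in TAK-931-2. The part of the tumour cell share in the class II levels was not tested.

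Stromal and muscle markers had their highest level in TAK-931-1 and differed in TAK-931-2. The fibroblast list had a median log2 fold change of 2.48, with all but Pdgfra higher in both TAK-931 libraries and at an unadjusted p under 0.05, from 1.82 for Pdgfra to 3.05 for Lum, and a summed level of 1357 to 1510 CPM in Vehicle and 11236 and 3834 CPM in TAK-931. The endothelial list had a median of 1.55, with 3 of 5 (Cdh5, Kdr and Vwf) higher in both and 2 (Kdr and Vwf) with an unadjusted p under 0.05 (30% and 11.6% of all genes), from 0.77 for Pecam1 to 4.16 for Vwf, and a summed level of 232 to 250 CPM in Vehicle and 846 and 247 CPM in TAK-931. Skeletal muscle genes, from 0.76 for Ckm to 2.11 for Mylpf in edgeR, overlapped between groups for 5 of 5 and had no stable direction, with a summed level of 81.6 to 85.8 CPM in Vehicle, against 556 and 11.4 CPM in TAK-931-1 and TAK-931-2. The summed muscle level was highest in TAK-931-1 and lowest in TAK-931-2. The part of these tissues in the class II levels was not tested.

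**Figure D4:**
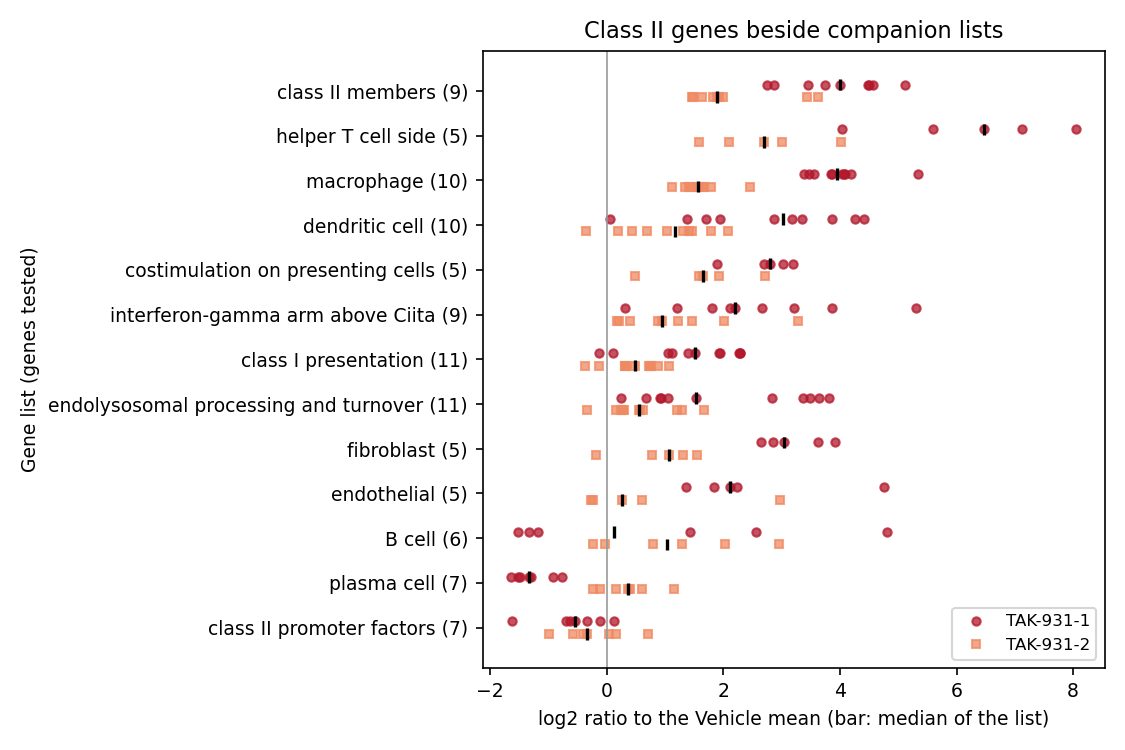
Log2 ratio to the Vehicle mean of each tested gene in TAK-931-1 (circles) and TAK-931-2 (squares), by list, with a bar at the median of each list. The 9 class II members have medians of 4.0 and 1.89, the macrophage list of 3.95 and 1.56, and the plasma cell list of -1.33 and 0.37.

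The genes whose pattern was nearest to the median of the members were sought among 10021 genes with a mean log2 CPM over 3, by the root mean square difference over 3 values: the log2 ratio to the Vehicle mean in each TAK-931 library and the difference of Vehicle-1 and Vehicle-2. The nearest was Irf8, a transcription factor of myeloid and B cells, at a distance of 0.11 log2 units. Bcl2a1b followed at 0.13, Tbc1d8 at 0.15, Il2rg, the common cytokine receptor chain, at 0.18 and Bcl2a1d at 0.20. Irf8 was at 34.6 and 12.3 CPM in Vehicle, against 301 and 83.3 CPM in TAK-931-1 and TAK-931-2. Bcl2a1b and Bcl2a1d are near-identical survival gene copies between which counts may be split. The likeness rests on 4 libraries and is a description.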

How the data were processed

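RNA of 4 J558 allografts (2 Vehicle, 2 TAK-931) was sequenced by the authors, who per the labels aligned reads with STAR 2.6.1c to mm10. The deposited values are whole-number read counts per gene from featureCounts, with no normalization, and beside them, per the file headers, a length in bases per gene, summed over its exons. The strand setting was not given in the sources used here. Only 17.9% to 23.9% of counts from 1 to 20 were odd, so both mates of a pair may be counted singly, and counting error is then larger than the counts imply. A count of 0 allows 3 counts, or 0.158 to 0.180 CPM. Floors cover counting error only. The reference is C57BL/6 and the mice are BALB/c, whose class II chains are of another haplotype, so reads of polymorphic exons may align less often, which bears on levels compared between chains and was not tested. The tables held 27 symbols altered to dates, of which March1 and March8 were recovered by position.

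Counts were filtered with filterByExpr (minimum count of 10), scaled by TMM and tested with edgeR 4.0.16 (robust quasi-likelihood, treatment only, two-sided, R 4.3.3) with Benjamini-Hochberg adjustment over all 13669 genes at 0.05. Log2 ratios to the Vehicle mean used a prior count of 2. Within-library ratios used counts per kb of exon and an exact permutation test over the 4 libraries (numpy 2.4.6). The labels number the libraries but name no shared batch, and same-numbered libraries did not deviate together across all genes tested (r = 0.00409). The members other than H2-Oa and H2-Ob did share an order: each was higher in Vehicle-1 than in Vehicle-2 and in TAK-931-1 than in TAK-931-2. Each library is counted as its own replicate, and p-values measure the spread between these 4 tumours. Promoters were the RefSeq windows of GRCm38.p6, and transcripts for the H2-DMb pair came from GENCODE vM21.

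The members and lists were chosen with earlier results of these data known. All members were named, and from each list the genes with the largest and smallest fold change, any gene opposite to the list, and Ptprc, Ifng, Irf1, Rfx5, Cd4, Lag3 and Prdm1, then the 5 nearest profiles. Alternatives were median-of-ratios factors, library size only, no filter, at least 10 counts in every library, a replicate block, each library left out, DESeq2 1.42.0, limma-voom (limma 3.58.1), no robust estimation, halved counts, H2-DMb1 and H2-DMb2 summed, and an adjusted p of 0.01. The ratios of Ciita, DM chains and H2-Ea-ps to the class II chains and the shorter X core were added after seeing the data. The edgeR fit was also run on simulated counts, and the outcome is not reported here. Some genes that the naming rule covers are not reported here.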

Additional observations from a re-analysis of the deposited data

How the results depend on the processing

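The direction of all 9 tested genes held under every alternative that tested them, and the count past an adjusted p of 0.05 did not. That count was 0 in edgeR, 6 with the replicate block (Ciita, H2-DMa, H2-DMb1, H2-Ab1, H2-Aa and H2-Eb1, at adjusted p-values of 0.0223 to 0.0415) and 9 with DESeq2 (adjusted p-values of 0.000101 to 0.0427). It was 0 with the other scalings and filters, halved counts, summed H2-DMb genes, no robust estimation and limma-voom (adjusted p-values of 0.358 to 0.366). Same-numbered libraries did not deviate together across all genes, but the members other than H2-Oa and H2-Ob were higher in both libraries numbered 1. The labels name no batch, but the names of same-numbered deposits share a letter whose meaning is not given, so whether the block stands for a shared batch was not tested. Leaving out each library in turn gave 0 to 4 genes (2 without TAK-931-1, 4 without TAK-931-2 and 0 without either Vehicle library), a median log2 fold change of 1.70 to 4.17 and 2 to 9 genes at an unadjusted p under 0.05, the lowest median and count being those without TAK-931-1. The 4 genes without TAK-931-2 were Cd74, H2-DMb1, H2-DMb2 and H2-Oa, of which H2-Oa passed the filter only through TAK-931-1 and so had to differ. In these fits the lone library of a group is assumed to vary like the other group, and edgeR then called 28.7% of all genes without TAK-931-1 and 58.1% without TAK-931-2. No filter moved the median of all genes to 0.12. Without TAK-931-1, list medians came to 1.56 for macrophage markers, 2.68 for helper T cell genes, 0.92 for the interferon-γ arm, 0.47 for class I, 0.54 for endosomal processing, 1.14 for dendritic cell markers, 1.06 for fibroblast markers, 0.25 for endothelial markers and -5.28 for skeletal muscle, while that of plasma cell markers turned from -0.24 to 0.37 and that of the promoter factors was -0.34. Several ratios whose groups overlapped changed sign: that of DO to DM chains turned to -0.48 without TAK-931-2, that to Ptprc to 0.23 without Vehicle-1 and to 0.00 without TAK-931-2, that to macrophage markers to -0.15 without Vehicle-2, and that of H2-Ea-ps to -0.03 without Vehicle-1 or TAK-931-1. The other ratios kept their sign but not their size: that to dendritic cell markers fell to 0.29 without Vehicle-2, that of Cd74 came to -0.13 without TAK-931-1, and that to B cell markers ranged from 1.99 without TAK-931-1 to 5.61 without TAK-931-2. The skeletal muscle median was 1.75 in edgeR, -0.59 with the replicate block and -1.01 with limma-voom. Depth limits H2-Oa, H2-Ob and H2-Eb2.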
